A study of Mus musculus with 8 samples.

Results

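Keratins, claudins, desmosome genes and 4 further adhesion or epithelial genes (Epcam, Cdh1, Gja1 and Serpinb5) were followed array by array in granulocytic myeloid-derived suppressor cells (Gr-MDSCs), which are immature, neutrophil-like cells of hematopoietic origin. A gene was included by its name: Krt or Cldn with a number, Dsc1 to Dsc3, Dsg with a number, Dsp, Jup, Pkp1 to Pkp3, or one of the 4 others. Of 18193 genes with a probe set of their own on the array, 87 met this rule: 48 keratins, 24 claudins, 11 desmosome genes and the 4 others. Each was represented by its probe set with the highest mean signal among 134 probe sets. The 87 genes were sorted from general knowledge into 14 of simple epithelium, 27 of stratified epithelium, 3 shared by both, 19 keratins of hair and nail, and 24 other genes. The rule also covers 21 RefSeq genes that no single-gene probe set measured, among them the desmogleins Dsg3, Dsg4 and Dsg1c and the keratin Krt9.

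The Gr-MDSCs came from prostate tumors of male CPPSML mice, which carry PB-Cre+ together with the floxed alleles PtenL/L, p53L/L and Smad4L/L and the reporters mTmGL/+ and LSL-LucL/+. PB-Cre acts in prostate epithelium, so the tumor arises from epithelial cells and the Gr-MDSCs are host cells that entered it. Every mouse was castrated once its tumor had reached 150 mm3, given enzalutamide in the diet for 4 weeks, and was 12 to 16 weeks old. Cells isolated with magnetic beads were kept for 6 h with 0.1 uM Dactolisib, a PI3K and mTOR inhibitor (2 arrays, Dactolisib 1 and 2), with 0.1 uM Dasatinib, a Src family and Abl inhibitor (2 arrays, Dasatinib 1 and 2), or with DMSO, the vehicle (4 arrays, DMSO 2 to 5). The titles gave these groups, since the treatment field of both Dasatinib samples reads Dactolisib. No source used here says whether the samples of a group came from separate mice, and p-values here can speak of the spread among these samples alone, which may be technical.

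Keratins are the intermediate filaments of epithelial cells and assemble from 1 type I and 1 type II chain. Simple epithelia, such as prostate luminal cells, use Krt8 and Krt18, basal cells of stratified epithelia use Krt5 and Krt14, and layers above them switch to other pairs, Krt4 with Krt13 in moist mucosa and Krt1 with Krt10 in skin. Claudins form the strands of tight junctions, and desmosomes, built from the cadherins Dsg and Dsc and the plaque proteins Jup, Pkp and Dsp, fasten keratin filaments to the cell membrane. Neutrophils belong to the blood lineage and are not known for any of these structures.

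Members of a keratin pair are coded at 2 loci in the mouse, and 24 of the 48 keratins lie on chromosome 11 and 24 on chromosome 15. Krt8 and Krt18 are an exception and are next to each other among coding genes on chromosome 15. Krt6b, Krt6a and Krt5 also follow one another there, as do Krt13, Krt15 and Krt19, and then Krt14, Krt16 and Krt17, on chromosome 11, and Cldn4 and Cldn3 on chromosome 5. The promoters of 4 keratins are shown because they stand for the patterns described next: Krt8 and Krt18, a luminal pair that moved together over the arrays, Krt5, a basal keratin, and Krt13, whose order of arrays differed. Each line holds the 250 bases before the annotated start in RefSeq (build GRCm38.p6), 5′ to 3′ on the gene's strand, at chr15:102004343-102004592 (minus strand) for Krt8, chr15:102027966-102028215 (plus) for Krt18, chr15:101712906-101713155 (minus) for Krt5 and chr11:100121567-100121816 (minus) for Krt13, the last with 2 starts listed, of which the first was used. Capitals mark matches to the motifs given below.
Krt8: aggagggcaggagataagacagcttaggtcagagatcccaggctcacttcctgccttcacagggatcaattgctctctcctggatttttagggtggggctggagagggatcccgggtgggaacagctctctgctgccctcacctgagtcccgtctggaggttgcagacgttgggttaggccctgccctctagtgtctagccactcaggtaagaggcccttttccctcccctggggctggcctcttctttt
Krt18: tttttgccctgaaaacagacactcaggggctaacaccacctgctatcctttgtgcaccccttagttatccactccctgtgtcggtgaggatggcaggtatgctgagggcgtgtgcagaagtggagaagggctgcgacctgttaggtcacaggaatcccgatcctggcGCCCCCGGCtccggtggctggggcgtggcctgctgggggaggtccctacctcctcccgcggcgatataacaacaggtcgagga
Krt5: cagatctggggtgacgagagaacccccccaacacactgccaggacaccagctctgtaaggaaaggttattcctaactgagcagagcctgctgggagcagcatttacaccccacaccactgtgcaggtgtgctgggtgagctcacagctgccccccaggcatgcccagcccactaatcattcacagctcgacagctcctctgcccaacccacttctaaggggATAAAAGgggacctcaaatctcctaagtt
Krt13: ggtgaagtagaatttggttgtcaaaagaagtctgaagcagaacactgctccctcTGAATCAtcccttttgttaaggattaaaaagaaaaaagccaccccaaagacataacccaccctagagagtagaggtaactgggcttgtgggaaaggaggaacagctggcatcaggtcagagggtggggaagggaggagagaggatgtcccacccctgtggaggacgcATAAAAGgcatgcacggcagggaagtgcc

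The window of Krt18 holds a match to the AP-2 letters GCCNNNGGC that begins 83 bases before the start. A TATA-like run, ATAAAAG, begins 29 bases before the start of Krt5 and of Krt13. Krt13 also matches the AP-1 motif, spelled TGANTCA, beginning 196 bases before it. The Krt8 window holds none of the motifs searched, which were these 3, TATAAA and the Sp1 letters GGGCGG, each on both strands. TATAAA and ATAAAAG can overlap. Over the 56 genes of the group that RefSeq's promoter table lists, TATAAA was found in 18 (32.1%), ATAAAAG in 11 (19.6%), TGANTCA in 7 (12.5%), GCCNNNGGC in 5 (8.93%) and GGGCGG in 14 (25%). Over all 27025 promoters the shares were 13.0%, 5.14%, 6.87%, 13.6% and 32.9% in the same order. ATAAAAG was chosen after the sequences had been seen, and a match is a description of letters, not of a bound factor.

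The deposited values are log2 signals, and their medians lay between 4.82 and 4.87 on the 8 arrays. By the genes outside the group, the arrays were clustered and cut at a chosen number of 3 sets. These sets cross the treatments: Dactolisib 1 beside DMSO 2 and DMSO 4 (set A), Dactolisib 2 and Dasatinib 2 beside DMSO 3 (set B), and Dasatinib 1 beside DMSO 5 (set C). The lowest Spearman correlation within a set was 0.982 and the highest between sets 0.973, across 29929 probe sets. The same probe sets gave the array sets, so this gap is a description and no test of them. Granulocyte genes were above background on at least 1 array in 11 of 11 cases measured, with a summed level of 15.29 and 15.62 with Dactolisib, 15.16 and 15.38 with Dasatinib and 15.37 to 15.73 with DMSO. This sum rests mostly on S100a8 and S100a9, and 7 of the 11 genes were wide-ranging, each highest in set A. Ltf, or lactoferrin, was the only 1 of the 7 that was lowest on the 3 arrays of set B. It had 12.82 and 9.5 with Dactolisib, 12.48 and 9.29 with Dasatinib, and 12.83, 9.51, 12.94 and 12.30 with DMSO. Cd177, Itgam, Mmp8 and Ngp were lowest on Dasatinib 1, and Cxcr2 and Mmp9 on DMSO 5. Ly6g, a marker of the sort, was not analysed here. A level was called above background where it passed the 95th percentile of 44 probe sets of olfactory receptors, genes of nasal sensory neurons, which lay at 4.85 to 5.21.

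Keratins, claudins and desmosome genes were measurable in every Gr-MDSC sample, and most of those that were measurable differed widely between arrays of the same treatment. Of the 87 genes, 53 were above background on at least 1 array, 37 on all 8, and 34 on none. By array, the count was 47 and 41 on Dactolisib 1 and 2, 50 and 43 on Dasatinib 1 and 2, and 47, 40, 48 and 51 on DMSO 2 to 5. Of all 18193 genes, 58.7% and 55.4% were above background on Dactolisib 1 and 2, and 63.0% and 56.1% on Dasatinib 1 and 2. For DMSO 2 to 5 it was 59.2%, 56.0%, 60.1% and 62.2%. The share of the 87 genes was lower than this on each array. The simple class was above background in 13 of 14 genes, Krt20 being the exception, the stratified class in 18 of 27, and the hair and nail class in 8 of 19. In bulk RNA, fewer epithelial cells and less RNA per such cell cannot be told apart.

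A gene is called wide-ranging here where its highest and lowest arrays differ by over 1 in log2. This held for 35 of the 87 genes, 13 of them simple, 13 stratified, 3 shared, 1 of hair and nail and 5 others. Over all genes it held for 24.6% of the 14237 that passed the filter on low values. Of the 87 genes, 65 passed that filter, and of the 35 all but Cldn8, so the 2 sets differ in this. Of these 35 genes, 1 was highest on Dactolisib 1, 14 on Dasatinib 1, 2 on DMSO 2, 1 on DMSO 4 and 17 on DMSO 5. Dasatinib 1 or DMSO 5 was thus the top array for 31, against 60.7% of all wide-ranging genes. Dasatinib 1 and DMSO 5 were the 2 highest arrays for 29 genes, against 55.9% of all wide-ranging genes, and the 3 arrays of set B were the lowest for 32, against 32.8%. A drug array and a vehicle array stood together at the top, and 2 drug arrays and a vehicle array at the bottom.

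**Figure D1:**
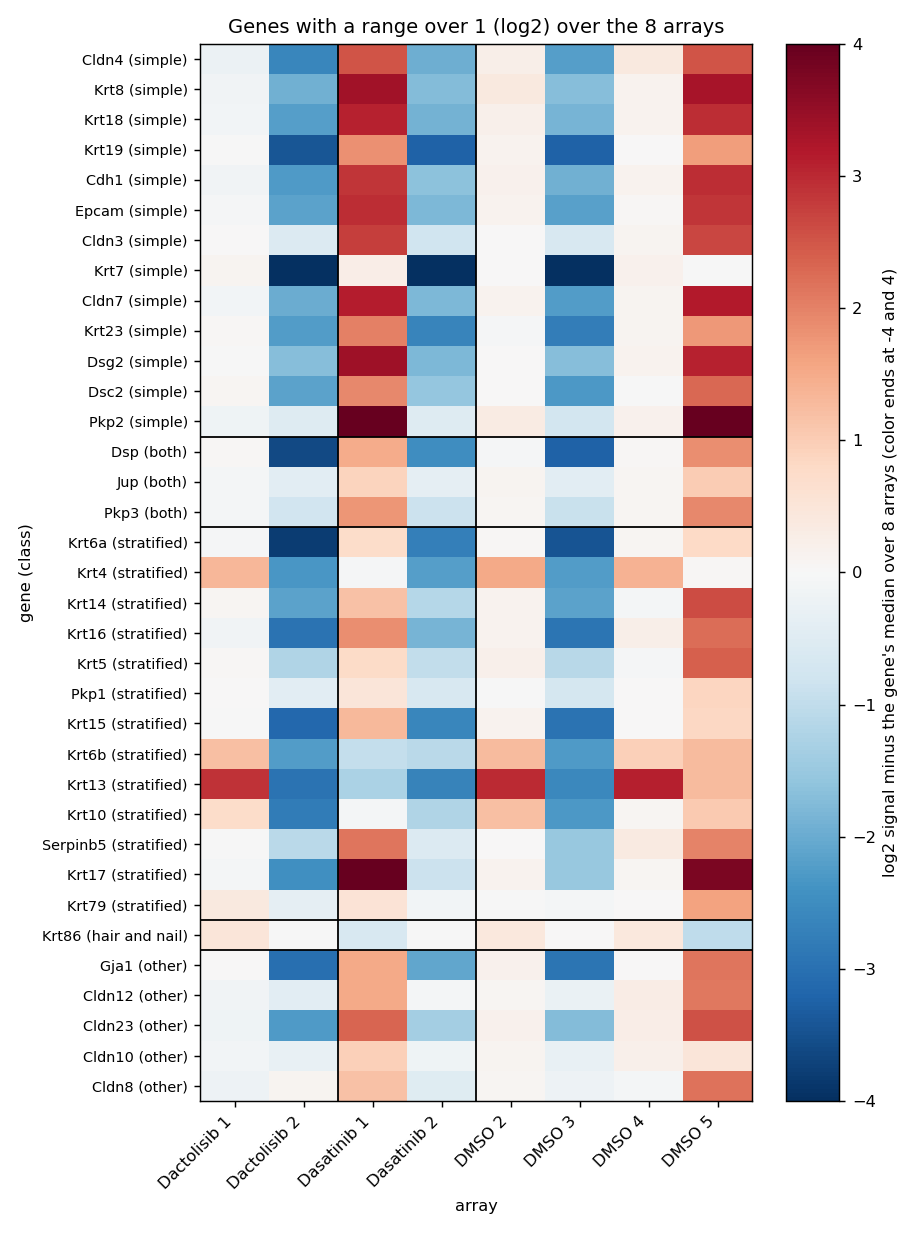
Log2 signal of the 35 wide-ranging genes (rows, sorted by class) on each of the 8 arrays (columns), less the gene's median over the arrays, with color from -4 to 4. Dasatinib 1 and DMSO 5 are red for most genes, Dactolisib 2, Dasatinib 2 and DMSO 3 are blue, and Krt4 and Krt13 are highest on Dactolisib 1, DMSO 2 and DMSO 4 instead.

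Simple keratins ran in step. Krt8, the type II keratin of luminal cells, had log2 signals of 9.88 and 8.09 on Dactolisib 1 and 2, 13.37 and 8.30 on Dasatinib 1 and 2, and 10.43, 8.33, 10.17 and 13.31 on DMSO 2 to 5. Krt18, its type I partner, had 9.53 and 7.46 with Dactolisib, 12.72 and 7.77 with Dasatinib, and 9.87, 7.78, 9.78 and 12.62 with DMSO. Both genes were high on Dasatinib 1 and DMSO 5 and low on the arrays of set B, and the ranges of the treatment groups overlapped. Their highest and lowest arrays lay 5.28 and 5.26 apart in log2, or 38.9-fold and 38.4-fold. On its highest array Krt8 stood at the percentile 99.9 of all probe sets, and on its lowest at 88.4.

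Krt19, a type I keratin of luminal and ductal cells that lacks the usual tail, had 10.24 and 6.82 with Dactolisib, 12.07 and 7.0 with Dasatinib, and 10.40, 7.01, 10.25 and 11.92 with DMSO. Krt23, a type I keratin of glandular epithelia, had 8.71 and 6.44 with Dactolisib, 10.68 and 6.02 with Dasatinib, and 8.63, 5.89, 8.78 and 10.40 with DMSO. These followed the order of Krt8, with a smaller step between sets C and A. Krt7, the type II keratin of ducts and transitional epithelium, had 10.42 and 5.57 with Dactolisib, 10.58 and 5.93 with Dasatinib, and 10.34, 5.91, 10.48 and 10.29 with DMSO. Its level was alike on the 5 arrays of sets A and C, 10.29 to 10.58, and 5.57 to 5.93 in set B, so no array of set C stood out. Krt20, of gut and urothelium, lay at 3.98 to 4.8, below background on all arrays.

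**Figure D2:**
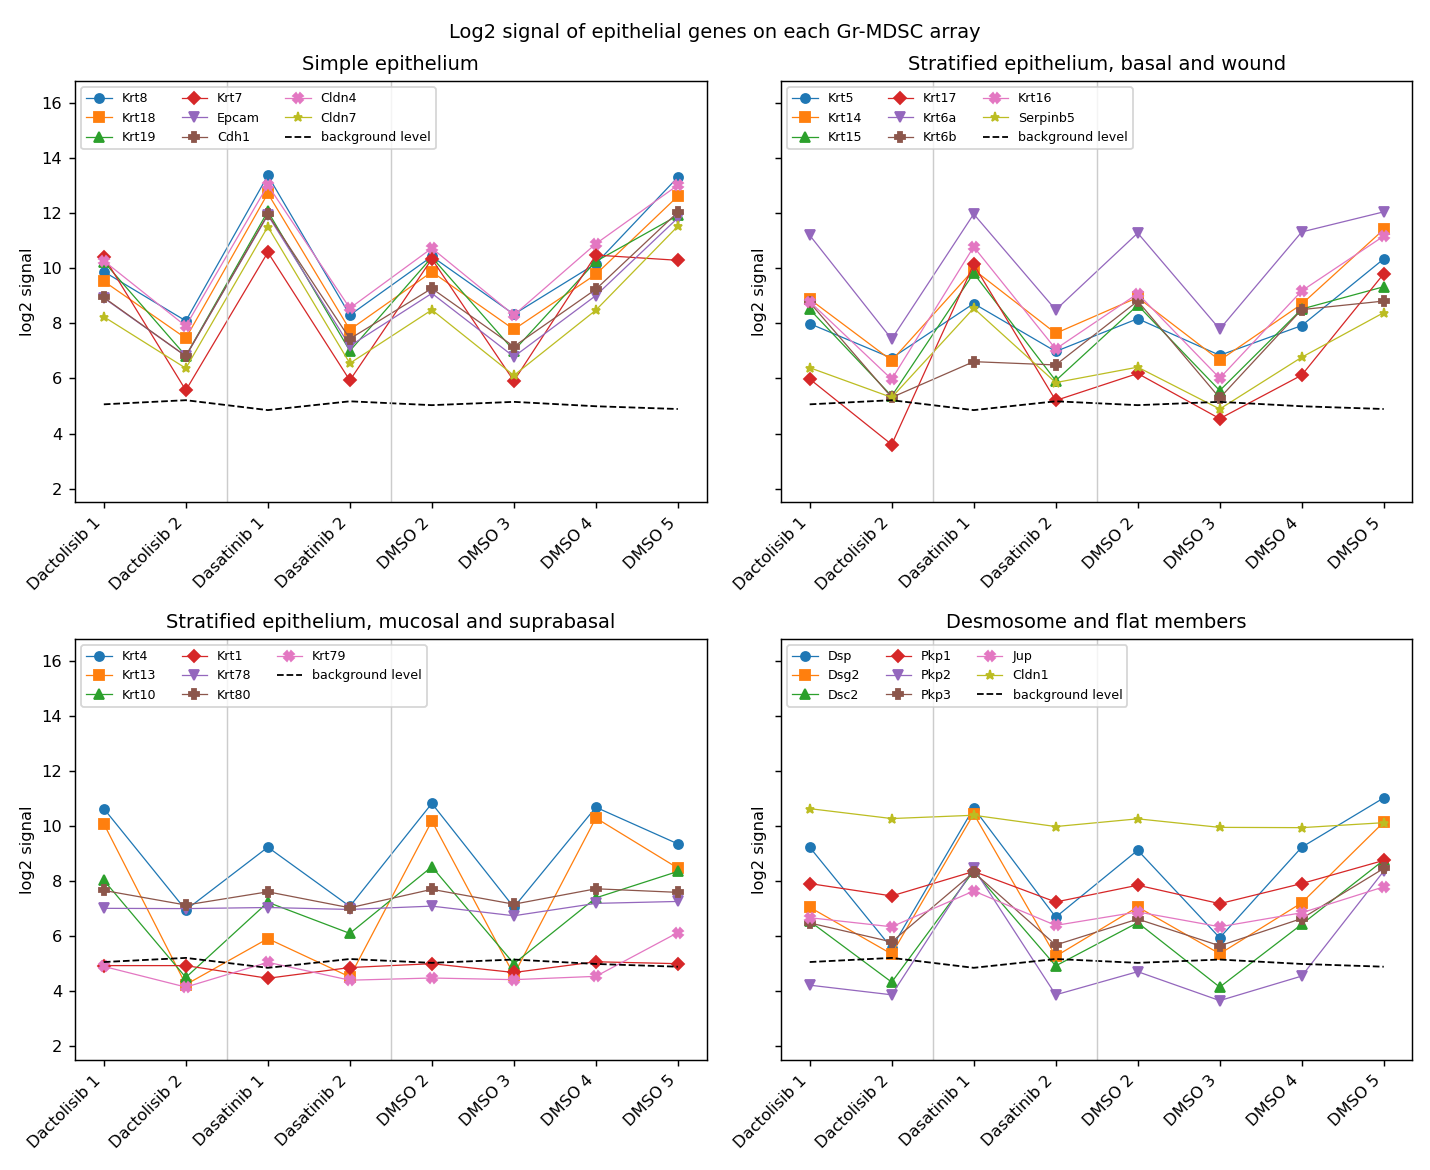
Log2 signal of selected simple, stratified and desmosome genes on each of the 8 arrays, drug arrays left of DMSO arrays. Each point is 1 gene on 1 array, lines join the points of a gene, and Krt8 is above 13 on Dasatinib 1 and DMSO 5 while Krt13 is above 10 on Dactolisib 1, DMSO 2 and DMSO 4.

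Epcam, a cell surface adhesion molecule of most simple epithelia, had 8.92 and 6.81 with Dactolisib, 11.93 and 7.18 with Dasatinib, and 9.09, 6.79, 9.01 and 11.83 with DMSO. Cdh1, or E-cadherin, of the adherens junction, had 8.94 and 6.81 with Dactolisib, 11.96 and 7.44 with Dasatinib, and 9.27, 7.16, 9.24 and 12.04 with DMSO. Both repeated the order of Krt8, with 35.4-fold and 37.5-fold between the outer arrays. A further Epcam probe set ran from 6.53 to 7.62, with the same 2 arrays on top, so the size of the span depends on the probe set.

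Claudins of simple epithelium gave the same picture. Cldn4 had 10.27 and 7.90 with Dactolisib, 13.02 and 8.55 with Dasatinib, and 10.73, 8.30, 10.89 and 13.02 with DMSO. Cldn7 had 8.24 and 6.37 with Dactolisib, 11.51 and 6.55 with Dasatinib, and 8.49, 6.11, 8.48 and 11.53 with DMSO. Cldn3, the neighbor of Cldn4, had 8.32 and 7.76 with Dactolisib, 11.09 and 7.52 with Dasatinib, and 8.32, 7.68, 8.42 and 10.98 with DMSO. On this probe set of Cldn3 the other 6 arrays lay within 7.52 to 8.42. The 3 further Cldn3 probe sets also parted set A from set B, as the one with the highest signals shows, at 8.31 and 6.77 with Dactolisib, 11.60 and 6.84 with Dasatinib, and 8.46, 6.71, 8.36 and 11.61 with DMSO. The mean of DMSO 2 and DMSO 4 was above DMSO 3 by 1.59 to 2.0 on these 3 and by 0.69 on the one used for Cldn3 in the counts.

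Claudins outside the simple class split into a few that followed and many that were not detected. Cldn23 had 5.25 and 3.14 with Dactolisib, 7.75 and 4.04 with Dasatinib, and 5.58, 3.69, 5.69 and 7.95 with DMSO, below background on the 3 arrays of set B. Cldn12, a claudin that lacks the usual end for scaffold binding, had 5.67 and 5.37 with Dactolisib, 7.32 and 5.71 with Dasatinib, and 5.89, 5.53, 6.10 and 7.91 with DMSO. Both were highest on DMSO 5. Cldn8, a barrier-forming claudin that did not pass the filter on low values, had 2.79 and 3.11 with Dactolisib, 4.16 and 2.52 with Dasatinib, and 3.08, 2.80, 2.91 and 5.18 with DMSO, above background on DMSO 5 alone. Cldn10, which forms ion pores, had 4.51 and 4.33 with Dactolisib, 5.58 and 4.46 with Dasatinib, and 4.74, 4.33, 4.83 and 5.11 with DMSO. Cldn1, a barrier claudin of the epidermis, did not share the order: 10.63 and 10.27 with Dactolisib, 10.39 and 9.98 with Dasatinib, and 10.26, 9.95, 9.94 and 10.12 with DMSO. A further Cldn1 probe set was as even, at 8.87 to 9.77, and 2 more lay between 2.20 and 2.65, below background. Cldn2, a pore claudin, lay at 4.60 to 5.22, Cldn5, the endothelial claudin, at 4.68 to 5.44, and Cldn18, of stomach and lung, at 4.51 to 5.18, all near or below background.

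Basal keratins of stratified epithelium were highest on set C too, but Dasatinib 1 and DMSO 5 no longer matched. Krt5 had 7.99 and 6.74 with Dactolisib, 8.72 and 6.98 with Dasatinib, and 8.17, 6.84, 7.92 and 10.34 with DMSO. Krt14, its partner, had 8.88 and 6.65 with Dactolisib, 9.95 and 7.64 with Dasatinib, and 8.94, 6.66, 8.70 and 11.41 with DMSO. On Dasatinib 1 the pair was closer to the level of set A than to that of DMSO 5. Krt15, a basal keratin without a fixed partner, had 8.51 and 5.36 with Dactolisib, 9.82 and 5.92 with Dasatinib, and 8.66, 5.56, 8.52 and 9.33 with DMSO. Krt17, induced in wounds and found in basal cells, had 5.98 and 3.60 with Dactolisib, 10.14 and 5.20 with Dasatinib, and 6.18, 4.54, 6.12 and 9.80 with DMSO. In contrast to Krt5 and Krt14, these 2 genes were higher on Dasatinib 1 than on DMSO 5.

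Keratins of proliferating and wounded stratified layers were abundant. Krt6a had 11.20 and 7.43 with Dactolisib, 11.97 and 8.49 with Dasatinib, and 11.28, 7.79, 11.32 and 12.05 with DMSO. Krt16, its type I partner, had 8.79 and 5.97 with Dactolisib, 10.78 and 7.07 with Dasatinib, and 9.08, 6.01, 9.18 and 11.17 with DMSO. Both were lowest in set B. Between sets A and C the distance was small for Krt6a and larger for Krt16. Krt6b, a near copy of Krt6a, had 8.76 and 5.31 with Dactolisib, 6.61 and 6.49 with Dasatinib, and 8.81, 5.29, 8.5 and 8.81 with DMSO. The Krt6 and the Krt14, Krt16 and Krt17 genes are alike in sequence, so the probe sets may share signal, and 1 probe set listed for both Krt17 and Krt14 was not used.

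Krt4 and Krt13, the pair of mucosal suprabasal cells, broke the order. Krt13 had 10.08 and 4.24 with Dactolisib, 5.91 and 4.52 with Dasatinib, and 10.18, 4.60, 10.29 and 8.47 with DMSO. Krt4 had 10.63 and 6.95 with Dactolisib, 9.23 and 7.08 with Dasatinib, and 10.82, 7.05, 10.68 and 9.35 with DMSO. The 3 arrays of set A were the highest for both, and for 3 of the 35 wide-ranging genes in all (9.60% of all wide-ranging genes), the other being Krt86. For Krt13, set B lay below background, and Dasatinib 1 was 2.56 below DMSO 5. The 2 further Krt13 probe sets were also highest on the 3 arrays of set A, at 6.98, 7.12 and 7.25 and at 6.49, 6.33 and 6.68 on Dactolisib 1, DMSO 2 and DMSO 4.

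Krt10, the type I keratin of skin suprabasal cells, had 8.03 and 4.50 with Dactolisib, 7.23 and 6.10 with Dasatinib, and 8.52, 5.0, 7.39 and 8.35 with DMSO. Its usual partner Krt1 stayed at 4.47 to 5.07, near background. Krt79, a type II keratin of hair follicle and gland ducts, had 5.05 on Dasatinib 1 and 6.13 on DMSO 5 and was below background on the other 6 arrays. Krt2, Krt12, Krt24, Krt76 and Krt77, of skin, cornea and palate, were below background on all arrays, as was each hair and nail keratin from Krt25 to Krt28. Krt78 and Krt80, type II keratins of stratified epithelium, were above background throughout with a narrow range, at 6.74 to 7.26 and 7.03 to 7.72. Within its range Krt80 lay at 7.03 to 7.16 in set B and at 7.59 to 7.72 in sets A and C.

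Desmosome genes were present for every layer of the junction. Among the cadherins, Dsg2, the desmoglein of simple epithelium, had 7.05 and 5.35 with Dactolisib, 10.44 and 5.27 with Dasatinib, and 7.06, 5.36, 7.21 and 10.14 with DMSO. Dsc2, the matching desmocollin, had 6.54 and 4.33 with Dactolisib, 8.37 and 4.92 with Dasatinib, and 6.49, 4.15, 6.43 and 8.76 with DMSO. The cadherins of stratified layers were at or below background: Dsg1a at 2.41 to 3.02, Dsg1b at 1.91 to 2.28 and Dsc1 at 2.30 to 2.78. Dsc3, of basal layers, lay at 4.42 to 4.96 on the probe set used, but another of its probe sets had 6.09 on Dasatinib 1 and 6.26 on DMSO 5, with at most 4.37 elsewhere.

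In the plaque, Dsp, which ties keratins to the junction, had 9.23 and 5.57 with Dactolisib, 10.65 and 6.69 with Dasatinib, and 9.12, 5.94, 9.23 and 11.02 with DMSO. Jup, or plakoglobin, had 6.67 and 6.34 with Dactolisib, 7.64 and 6.39 with Dasatinib, and 6.88, 6.34, 6.85 and 7.79 with DMSO. Dsp spanned 43.7-fold and Jup 2.74-fold, with the same order of sets. Pkp2, the plakophilin of simple epithelium and heart, was above background on Dasatinib 1 (8.46) and DMSO 5 (8.36) and lay at 4.22 and 3.87 on the Dactolisib arrays, 3.87 on Dasatinib 2, and 4.71, 3.66 and 4.55 on DMSO 2 to 4. Pkp3, found in most epithelia, had 6.48 and 5.79 with Dactolisib, 8.32 and 5.68 with Dasatinib, and 6.62, 5.65, 6.64 and 8.46 with DMSO. Pkp1, the plakophilin of stratified epithelium, had 7.91 and 7.46 with Dactolisib, 8.35 and 7.24 with Dasatinib, and 7.85, 7.18, 7.91 and 8.75 with DMSO. Pkp2 thus set apart 2 arrays, Pkp1 spread over 1.57 in log2, and Pkp3 lay between.

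Gja1, connexin 43 of gap junctions, had 7.06 and 4.04 with Dactolisib, 8.59 and 4.99 with Dasatinib, and 7.22, 4.14, 7.06 and 9.20 with DMSO. Fibroblasts use Gja1 as well. Serpinb5, or maspin, a serpin of basal and stratified cells, had 6.39 and 5.31 with Dactolisib, 8.55 and 5.85 with Dasatinib, and 6.41, 4.89, 6.77 and 8.39 with DMSO. Both followed the order of the simple keratins, with Gja1 below background in set B.

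Of the 18 genes that were above background but not wide-ranging, 7 were hair and nail keratins, 5 stratified and 6 others. Krt42, a type I keratin, lay at 7.84 to 8.58, Krt83 at 6.02 to 6.70, and Cldn22 at 5.36 to 5.77. Krt86, of the hair cortex, was the 1 hair keratin with a wide range: 5.83 and 5.34 with Dactolisib, 4.71 and 5.33 with Dasatinib, and 5.78, 5.35, 5.78 and 4.34 with DMSO, lowest on set C, where it lay below background.

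The 4 DMSO arrays, which share a treatment, let simple and stratified genes be compared without a drug. DMSO 5 was the highest and DMSO 3 the lowest for 30 of the 35 wide-ranging genes, against 43.5% of all wide-ranging genes. DMSO 2 and DMSO 4 nearly coincided, with a median difference of 0.11 in either direction over the 35 genes and a largest of 1.13, for Krt10. The mean of DMSO 2 and DMSO 4 was above DMSO 3 by a median of 2.27 for simple and 2.95 for stratified genes. DMSO 5 was above that mean by a median of 2.78 for simple and 0.87 for stratified genes. The classes overlapped gene by gene, since the step up to DMSO 5 was the larger one for 8 of 13 simple and 6 of 13 stratified genes. Among simple genes these differences were 1.97 and 3.01 for Krt8 and 2.37 and 3.04 for Cldn7, but 3.31 and 1.60 for Krt19, 2.81 and 1.69 for Krt23 and 4.50 and -0.12 for Krt7. Among stratified genes they were 3.51 and 0.75 for Krt6a, 3.02 and 0.74 for Krt15 and 5.64 and -1.77 for Krt13, but 1.61 and 3.65 for Krt17, 1.20 and 2.29 for Krt5, 2.17 and 2.59 for Krt14 and 1.71 and 1.80 for Serpinb5. These are values of 4 arrays with no test, and whether the arrays came from different tumors is not given in the sources used here.

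**Figure D3:**
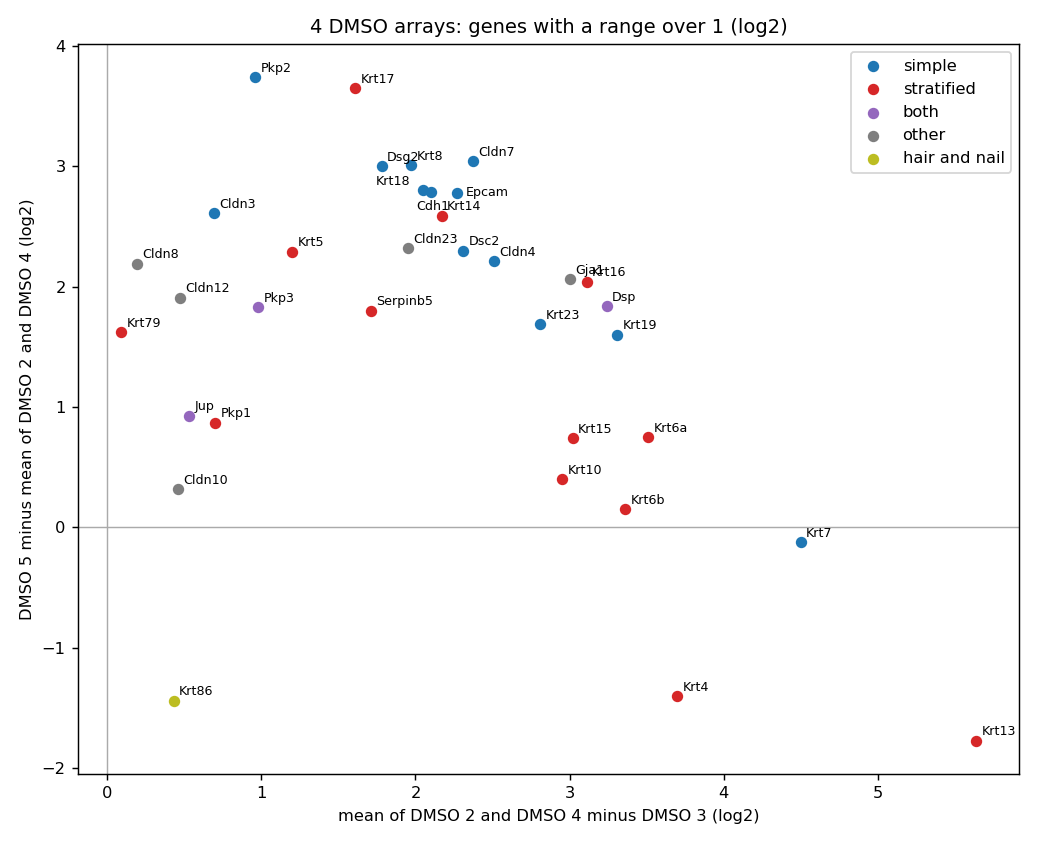
Each point is 1 of the 35 wide-ranging genes, with the mean of DMSO 2 and DMSO 4 minus DMSO 3 on the x axis and DMSO 5 minus that mean on the y axis, both in log2, colored by class. The classes overlap: stratified Krt17, Krt5, Krt14 and Serpinb5 lie among simple genes such as Krt8 and Cldn7 with a large step up to DMSO 5, while stratified Krt6a, Krt15 and Krt13 and simple Krt7 lie to the lower right.

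The fibroblast and secretory lists of other cells varied with the array sets. Summed over the list, prostate and seminal vesicle secretory genes lay at 7.09 and 6.63 with Dactolisib, 12.68 and 6.54 with Dasatinib, and 7.08, 6.55, 7.0 and 14.44 with DMSO, with 6 of 8 above background somewhere. On Dasatinib 1 and DMSO 5 this sum rests mostly on seminal vesicle genes. Svs2 had 12.12 and 13.09 there, Svs4 9.26 and 11.87, and Svs5 8.7 and 13.11. Pbsn, the gene whose promoter drives the Cre, was at most 2.82, and Msmb at most 3.16. Fibroblast genes lay at 10.37 and 8.44 with Dactolisib, 10.51 and 8.28 with Dasatinib, and 10.44, 8.49, 10.47 and 11.26 with DMSO (5 of 8 above background). Monocyte and macrophage genes lay at 13.09 to 13.34 on the drug arrays and at 12.70 to 13.37 with DMSO (8 of 8), a sum that rests mostly on Csf1r and Cd68 and did not follow the sets. Of its 8 genes 6 were wide-ranging, and C1qa, C1qb, C1qc and Mrc1 were highest on Dasatinib 1 or DMSO 5, with DMSO 5 above the mean of DMSO 2 and DMSO 4 by 1.16 to 1.84. Of the T cell, B cell and endothelial lists, 2 of 4, 0 of 3 and 2 of 5 genes were above background. The part of these cells in the keratin, claudin and desmosome values was not tested.

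Epithelial genes outside the group were read in 4 lists. Of 13 measured tight junction genes, 12 were wide-ranging and all 12 were highest on Dasatinib 1 or DMSO 5. Ocln, the tight junction protein occludin, had 7.26 and 4.58 with Dactolisib, 9.84 and 4.9 with Dasatinib, and 7.25, 4.84, 7.28 and 10.09 with DMSO. Of 12 epithelial transcription and splicing factors 9 were wide-ranging, all 9 highest on the same arrays, among them Foxa1, a luminal factor, with 7.95 and 4.92 with Dactolisib, 10.11 and 5.48 with Dasatinib, and 8.01, 5.31, 7.88 and 10.09 with DMSO. Trp63, the basal factor p63, was below background, at 4.15 to 4.50. Of 10 adherens junction and plaque genes 6 were wide-ranging, 5 of them highest there. Perp, a desmosomal membrane protein, had 8.45 and 5.16 with Dactolisib, 9.54 and 6.30 with Dasatinib, and 8.62, 5.74, 8.65 and 10.35 with DMSO.

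The cornified envelope list resembled Krt4 and Krt13 in part. Of its 14 measured genes 10 were wide-ranging, 5 highest in set A and 5 on Dasatinib 1 or DMSO 5. Sprr3, an envelope precursor of mucosal epithelium, had 8.14 and 4.68 with Dactolisib, 5.0 and 4.81 with Dasatinib, and 8.11, 5.01, 8.07 and 4.9 with DMSO. Cnfn, or cornifelin, had 8.56 and 5.14 with Dactolisib, 5.11 and 5.26 with Dasatinib, and 8.55, 4.76, 8.29 and 5.65 with DMSO. Both were high on the 3 arrays of set A and lay at 4.68 to 5.01 and 4.76 to 5.65 on the other 5. Ly6d, by contrast, was highest on Dasatinib 1 (10.34) and DMSO 5 (10.65). In limma, 13 tight junction, 10 adherens and plaque, 13 cornified envelope and 12 factor genes were tested. Of these, 0 passed adjusted p < 0.05 in any comparison, with or without the array set as a block. Without the block 0.0% of all probe sets passed in each comparison. With it 6.39% passed for Dactolisib against DMSO and 0.0% for the other comparisons.

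The drugs were then compared with DMSO. Dactolisib against DMSO, in limma across 30024 probe sets, passed 0 of the 65 genes of the group that survive the filter, where 0.0% of all probe sets passed, and 1 gene had an unadjusted p under 0.05 (6.24% of all probe sets). Krt8 averaged 8.99 ± 1.27 with Dactolisib (SD, n = 2) and 10.56 ± 2.06 with DMSO (SD, n = 4), a difference of -1.57 ± 1.32 (SE; limma adjusted p = 0.782). Krt17 averaged 4.79 ± 1.68 and 6.66 ± 2.23, a difference of -1.87 ± 1.47 (limma adjusted p = 0.780). The gene with the lowest p was Cldn1, at 10.45 ± 0.25 with Dactolisib and 10.07 ± 0.15 with DMSO, a difference of 0.38 ± 0.15 (limma adjusted p = 0.775). The median difference was -1.30 over 14 simple genes, -0.68 over 21 stratified genes and -0.23 over all 65, against 0.01 over all genes. No Dactolisib array belongs to set C, and without DMSO 5 the simple median was -0.41, without Dactolisib 2 it was -0.40, and without Dactolisib 1 it was -2.33.

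Within array sets, that is with the set as a block, so that DMSO 5 drops out of the difference, limma passed 4 of 65 genes (6.15%), and 6.39% of all probe sets passed. Cldn4 fell by 0.48 ± 0.09 (SE; limma adjusted p = 0.0260), Cldn23 by 0.46 ± 0.09 (0.0266) and Cdh1 by 0.33 ± 0.08 (0.0487), 3 genes beside 4.2% of probe sets called lower. Krt20 rose by 0.37 ± 0.08 (0.0383), at levels below background on every array. Cldn4 was 0.54 lower on Dactolisib 1 and 0.40 lower on Dactolisib 2 than the DMSO arrays of its set, Cldn23 0.39 and 0.54 lower, and Cdh1 0.32 and 0.35 lower. Cldn23 was below background on Dactolisib 2 and DMSO 3. The share of genes called was near that of all probe sets. This fit has 2 residual degrees of freedom. Without Dactolisib 1 and without Dactolisib 2 the difference was -0.40 and -0.54 for Cldn4, -0.54 and -0.39 for Cldn23, and -0.35 and -0.32 for Cdh1. Without DMSO 3, which leaves Dactolisib 2 no DMSO array in its set, the fit passed 0 genes and 0 of 30024 probe sets. It passed 6 genes without DMSO 2 (2854 probe sets) and 4 without DMSO 4 (1547 probe sets), each time without Cdh1 (limma adjusted p = 0.062 and 0.0716). These counts of genes rose and fell with those of all probe sets.

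Dasatinib against DMSO passed 0 of 65 genes (0.0% of probe sets), with 1 gene at unadjusted p under 0.05 (0.366% of probe sets). Krt8 averaged 10.84 ± 3.59 with Dasatinib (SD, n = 2) and 10.56 ± 2.06 with DMSO (SD, n = 4), a difference of 0.27 ± 1.79 (SE; limma adjusted p = 1.0). Krt13 averaged 5.22 ± 0.99 and 8.38 ± 2.66, a difference of -3.17 ± 1.66 (limma adjusted p = 1.0). The lowest p was that of Krt75, a hair follicle keratin, at 5.89 ± 0.29 and 5.47 ± 0.14, a difference of 0.42 ± 0.17 (limma adjusted p = 1.0). The median difference was 0.25 over simple genes, -0.13 over stratified genes and -0.01 over all 65, against 0.00 over all genes. The 2 Dasatinib arrays lie at opposite ends, and without Dasatinib 1 the simple median was -2.14, without Dasatinib 2 it was 2.41, without DMSO 5 it was 1.12, without DMSO 3 it was -0.48, and without both Dasatinib 1 and DMSO 5 it was -1.21.

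Within array sets, which leaves DMSO 3 and DMSO 5 to set against Dasatinib, limma again passed 0 genes (0.0% of probe sets), with 7 at unadjusted p under 0.05 (4.88% of probe sets). Their lowest adjusted p was 0.85. Krt17 had a difference of 0.50 ± 0.11 (SE), with DMSO 3 below background, and Krt13 of -1.32 ± 0.49. For Krt13 the difference was -2.56 for Dasatinib 1 minus DMSO 5. It was -0.08 for Dasatinib 2 minus DMSO 3, both below background.

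Dactolisib against Dasatinib, fitted on all 8 arrays, passed 0 of 65 genes (0.0% of probe sets), with 0 at unadjusted p under 0.05 (3.64% of probe sets). Krt8 averaged 8.99 ± 1.27 with Dactolisib and 10.84 ± 3.59 with Dasatinib (SD, n = 2 each), a difference of -1.85 ± 1.96 (SE; limma adjusted p = 0.841). Krt17 averaged 4.79 ± 1.68 and 7.67 ± 3.49, a difference of -2.89 ± 2.05 (limma adjusted p = 0.841). The median was -1.67 over simple and -0.09 over stratified genes. It turned to 0.69 for the simple genes without Dasatinib 1 and was -4.0 without Dasatinib 2. Within array sets 0 genes passed (0.0% of probe sets), with 12 at unadjusted p under 0.05 (14.3% of probe sets), led by Krt17 at -1.20 ± 0.22 (limma adjusted p = 0.0945) and Cldn4 at -0.62 ± 0.12 (limma adjusted p = 0.100). Krt17 was below background on Dactolisib 2 and DMSO 3.

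Each drug array was also set against the DMSO arrays of its own set, which gives values with no test. On Dactolisib 1 the median over the wide-ranging genes was -0.13 for simple and -0.07 for stratified genes, and on Dactolisib 2 it was 0.00 and -0.10. The median of all 3499 wide-ranging genes was -0.06 and -0.07 on these arrays. Of the 35 genes, 25 were lower on Dactolisib 1 and 23 on Dactolisib 2, against 59.5% and 58.8% of all wide-ranging genes, and 17 were lower on both, against 47.1%. Krt8 was 0.42 and 0.24 lower and Krt18 0.30 and 0.31 lower, while Krt14 differed by 0.06 and -0.01 and Krt23 by 0.00 and 0.54.

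On the Dasatinib arrays the medians of simple and stratified genes parted, in opposite directions, while the classes overlapped gene by gene. On Dasatinib 1 the median against DMSO 5 was 0.10 for simple and -0.40 for stratified genes, and on Dasatinib 2 the median against DMSO 3 was 0.12 and 0.67. Stratified genes were lower on Dasatinib 1 in 10 of 13 cases and lower on Dasatinib 2 in 2 of 13, and over all 35 genes the counts were 20 and 9, against 47.7% and 57.2% of all wide-ranging genes. Dasatinib 1 was below DMSO 5 by over 1 for 7 of the 35 genes, against 2.77% of all wide-ranging genes, and above it by over 1 for 0, against 3.23%. The 7 were Krt13, Krt6b, Krt5, Krt14, Krt10, Krt79 and Cldn8. Krt5 was 1.62 lower, Krt6b 2.20 lower and Krt10 1.13 lower, beside 0.06 higher for Krt8 and 0.10 higher for Krt18. The stratified genes Krt15, Krt17 and Serpinb5 were 0.49, 0.34 and 0.16 higher. Of the 3 simple genes that were lower, Dsc2 differed most, at -0.39. On Dasatinib 2, Krt6b was 1.20 higher, Krt10 1.10, Krt16 1.06, Krt14 0.98, Serpinb5 0.97 and Krt6a 0.70 higher, beside -0.03 for Krt8 and -0.01 for Krt18. Other stratified genes moved less, with Krt5 at 0.14, Krt4 at 0.02 and Krt13 at -0.08. Among simple genes, 5 of 13 were lower there, but Dsc2 was 0.77, Cldn7 0.44, Epcam 0.39 and Cdh1 0.28 higher. The shared gene Dsp was 0.74 higher. Of the genes given for Dasatinib 2, Dsc2 and Krt13 were below background on both arrays, and Krt10 and Serpinb5 were below it on DMSO 3. Each of these comparisons rests on 1 array against 1 array, and the fibroblast and secretory levels differ within set C as well, at 10.51 and 12.68 on Dasatinib 1 and 11.26 and 14.44 on DMSO 5. Granulocyte genes differ in this pair too, with Ngp at -2.24, Cd177 at -1.66 and Mmp8 at -1.60 for Dasatinib 1 minus DMSO 5. Their part in the result was not tested.

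**Figure D4:**
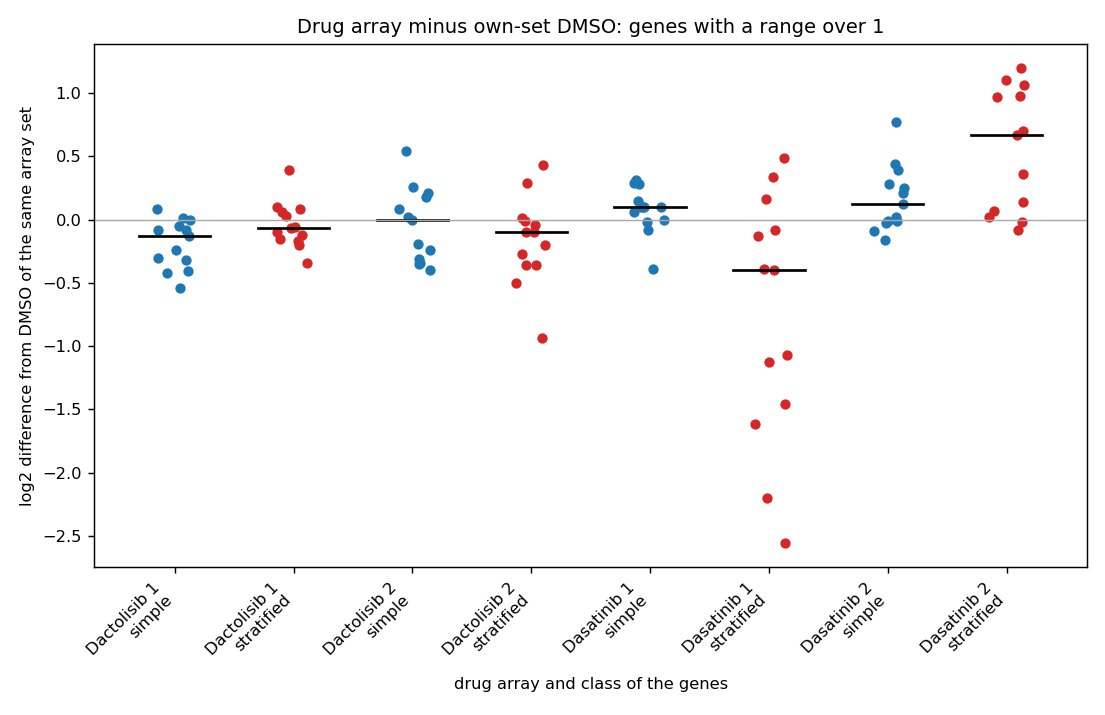
Log2 signal of each drug array minus the mean of DMSO in the same array set, for 13 simple and 13 stratified wide-ranging genes. Each point is 1 gene and each bar the median, which lies near 0 for both Dactolisib arrays, at -0.40 for stratified genes on Dasatinib 1 and at 0.67 for them on Dasatinib 2.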

How the data were processed

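RNA of 8 Gr-MDSC samples was measured on Affymetrix mouse genome arrays, each hybridised with 1 sample. The deposited values are log2 signals of 45101 probe sets. For their summary, oligo is named in the paper and MAS5 in the submitters' processing notes, and the paper names RNeasy where the labels name Trizol. Values were used as deposited. The number of arrays limits the precision.

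Probe sets were named through GEO's platform annotation: 34945 have 1 gene, 932 several and 9160 none, and 64 controls were left out. Those in the upper 66.7% by mean signal (30024 probe sets, 14237 genes) were tested. The genes and lists were chosen with earlier results of these data known, and so were the array sets, found by average linkage over tested probe sets outside the group. Every gene of the group may be named, and array-by-array values go to main keratins, claudins and desmosome genes and to those with the widest range, highest mean or lowest p.

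Drugs were compared with limma 3.58.1 in R 4.3.3 (empirical Bayes, two-sided, Benjamini and Hochberg adjustment over all probe sets tested, threshold 0.05), as the paper's methods name limma. The 6 arrays of a drug and DMSO entered each fit, and all 8 that of the drugs. The fit was tested on simulated data. A summed level is log2 of the sum of linear signals. Alternatives were quantile normalization, 32 added before log2, no filter, the upper 33.3%, averaging over a gene's probe sets, the methods' t-test, other arrays in the fit, array set or replicate number as a block, each array left out, and the 99th percentile as background. After seeing the data, leaving out both Dasatinib 1 and DMSO 5, and leaving out each array within array sets, were added. Within array sets, only sets that hold both groups bear on a difference. Promoters were read from RefSeq's table.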

Additional observations from a re-analysis of the deposited data

Results flagged for a closer look

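In the 4 DMSO arrays, 13 of 87 genes (14.9%) had 1 array so far from the other 3 that its gap, divided by the whole range, passed Dixon's critical value. Chance flags about 0.05 of independent groups, but these genes share the same 4 arrays. The share over all genes was not computed, so 14.9% cannot be read as particular to this group. For Krt7 the ratio was 0.959, with DMSO 3 at 5.91 and the others at 10.29 to 10.48, and for Krt6b 0.912, with DMSO 3 at 5.29 and the others at 8.5 to 8.81. For Krt79 it was 0.927, with DMSO 5 at 6.13 and the others at 4.42 to 4.54, and for Cldn8 0.883, with DMSO 5 at 5.18 and the others at 2.80 to 3.08. In the other 9 genes the whole range was at most 0.52 in log2: Cldn22 (0.993), Krt35 (0.966), Krt36 (0.867), Krt222 (0.867) and Dsg1a (0.854) for DMSO 5, Krt2 (0.895), Krt75 (0.878) and Cldn9 (0.900) for DMSO 4, and Krt20 (0.872) for DMSO 3.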

How the results depend on the processing

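No comparison of a drug with DMSO, or of the drugs, passed a gene of the group under any alternative but the array set as a block. That block gave 4 for Dactolisib against DMSO (0 to 6 with 1 array left out, where 0 to 2854 of 30024 probe sets passed). The median of the 65 genes for Dactolisib against DMSO (-0.23) was -0.99 over the upper 33.3% of probe sets only (38 genes), 0.02 with the array set as a block, and -0.47 (without DMSO 3) to 0.00 (without Dactolisib 2) with 1 array left out. For Dasatinib against DMSO, leaving out 1 array gave -0.49 to 0.13 over the 65 genes and -2.14 to 2.41 over the simple genes. For Dactolisib against Dasatinib (-0.09) it was -0.89 over the upper 33.3% only, 0.16 without both Dasatinib 1 and DMSO 5, and -0.33 to 0.16 with 1 array left out, and the stratified median then ran between -0.97 and 0.17. Cldn9, below background throughout, turned to -0.03 (Dactolisib against DMSO) and -0.02 (Dactolisib against Dasatinib) on the mean of its probe sets. With 32 added before log2, 0 genes were highest on Dactolisib 1. Of 126 ranges recomputed for 42 genes, 107 moved by less than 1 SD, and among the others the Dsc3 range was 1.25 on the mean of its probe sets. The replicate number was shared by 2 pairs of drug arrays (Dactolisib 1 with Dasatinib 1, and 2 with 2), whose deviations correlated at 0.559, a single value since 2 arrays of a drug mirror each other. DMSO 2 shares its number with Dactolisib 2 (-0.24) and Dasatinib 2 (0.396). The number was not taken as pairing. With this number as a block 0 genes passed for Dactolisib against Dasatinib, and the median was -0.09. In that fit 11 of the 65 genes had an unadjusted p under 0.05. The share over all probe sets was not computed for it, so this count cannot be set against a background. Depth does not apply to arrays, and genes near background give no order.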
